A study of Rattus norvegicus with 4 samples.

Results

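Oligodendrocyte precursor cells (OPCs) of the rat nucleus accumbens were examined as 891 nuclei among the 26228 nuclei of the series (3.40%). The nuclei were chosen by their own UMI counts (unique molecular identifiers, each standing for 1 captured RNA molecule). A nucleus was kept with at least 200 genes, at least 1 UMI of Pdgfra and at least 1 UMI of C1ql1, Megf11 or Shc4 together. It could hold at most 1 UMI of the GABAergic neuron genes Gad1 and Gad2 together, and at most 1 of Drd2 and Ebf1 together, which mark medium spiny neurons, the projection neurons of this region. Among females they were 3.53% of nuclei with saline (225 nuclei, exact Clopper-Pearson 95% interval 3.09% to 4.01%) and 2.78% with cocaine (202). Among males they were 3.64% with saline (226) and 3.73% with cocaine (238).

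Tissue came from 16 Sprague-Dawley rats aged 90 to 120 days, in a study whose title concerns cocaine responses of accumbens neurons. Saline or 20 mg/kg cocaine was injected intraperitoneally once a day for 7 days, and a 2 mm punch centred on the accumbens core was taken 1 hour after the last injection. Each of the 4 libraries pools 4 rats of 1 sex and 1 treatment: saline females, cocaine females, saline males and cocaine males. Nuclei were profiled by droplet single-nucleus RNA sequencing (10x Genomics 3′ v3 chemistry), so each treatment has 2 pooled libraries and each treatment within a sex has 1. The p-values below measure the spread among these pooled libraries, not among single rats.

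OPCs are the resident dividing cells of the oligodendrocyte lineage in the adult brain. They are held as precursors by platelet-derived growth factor acting on the receptor Pdgfra, carry the proteoglycan NG2 (Cspg4), and receive synaptic input from neurons through glutamate and GABA receptors. On leaving the precursor state they switch on or raise Gpr17, Bmp4, Enpp6, Neu4, Bcas1 and Tcf7l2, lose Pdgfra, and then make the myelin proteins Mbp, Mog and Opalin.

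Library totals ran from 31484217 to 40737786 UMIs. The depth of OPC nuclei differed more by sex than by treatment: the median was 3639 UMIs in saline females, 3022 in cocaine females, 2519.5 in saline males and 2373 in cocaine males. Within each sex the cocaine library was the shallower. A doublet caller (Scrublet) marked 8, 8, 7 and 12 OPC nuclei in these libraries, in the same order, and no OPC nucleus had over 5% mitochondrial UMIs. The libraries shared 81 barcode sequences, which 7 OPC nuclei carried, and no barcode was an OPC nucleus in more than 1 library. The Y-linked genes Kdm5d and Eif2s3y had 0 UMIs in OPC nuclei of both female libraries, and 36 to 42 in each male library, as the labels give the sexes.

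Of the 5 marker genes, Pdgfra, C1ql1, Megf11 and Shc4 were used by the selection, so their high levels cannot bear out the label. Levels here are CPM, a gene's counts per 1000000 UMIs of a library's OPC nuclei, given as mean ± SD over 4 libraries, and they describe nuclei that were selected on some of these genes, so no test is given against other nuclei. Pdgfra, used by the selection, stood at 1260 ± 124 CPM against 5.35 ± 2.03 in all other nuclei. C1ql1, a secreted C1q-like protein, stood at 564 ± 64.1 CPM against 5.06, Megf11 at 1866 ± 77.8 against 27.9, and the adaptor Shc4 at 425 ± 13.7 against 3.89. Col5a3, a collagen chain that the selection did not use, was 1257 CPM in saline females, 1104 in cocaine females, 1381 in saline males and 1150 in cocaine males, against 7.19 ± 2.08 in other nuclei. It was seen in 801 of the 891 OPC nuclei (89.9%) and in 75 of 6930 oligodendrocyte nuclei. All 5 marker genes together were seen in 421 nuclei (47.3%).

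The proteoglycans that define these cells were present in most nuclei. Cspg4, the NG2 proteoglycan, held between 502 and 522 CPM in the 4 libraries (512 ± 8.95) and was seen in 72.1% of OPC nuclei, against 0.938% of oligodendrocyte and 2.06% of astrocyte nuclei. Median depth was 1538.5 to 2024 UMIs in oligodendrocyte nuclei and 2635 to 3392 in astrocyte nuclei. With each nucleus thinned to 1000 UMIs, Cspg4 was seen in 34.7% to 41.6% of OPC nuclei by library and in 0.292% to 0.584% of oligodendrocyte nuclei. Vcan, the large matrix proteoglycan versican, was at 1483 ± 95.5 CPM and seen in 92.5%. Xylt1, the xylosyltransferase that starts chondroitin and heparan sulfate chains, was at 2148 ± 146 CPM against 113 in other nuclei. Bcan (brevican) was at 405 ± 38.6 CPM in OPC nuclei and 999 ± 146 in astrocyte nuclei, so it marked both.

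**Figure D1:**
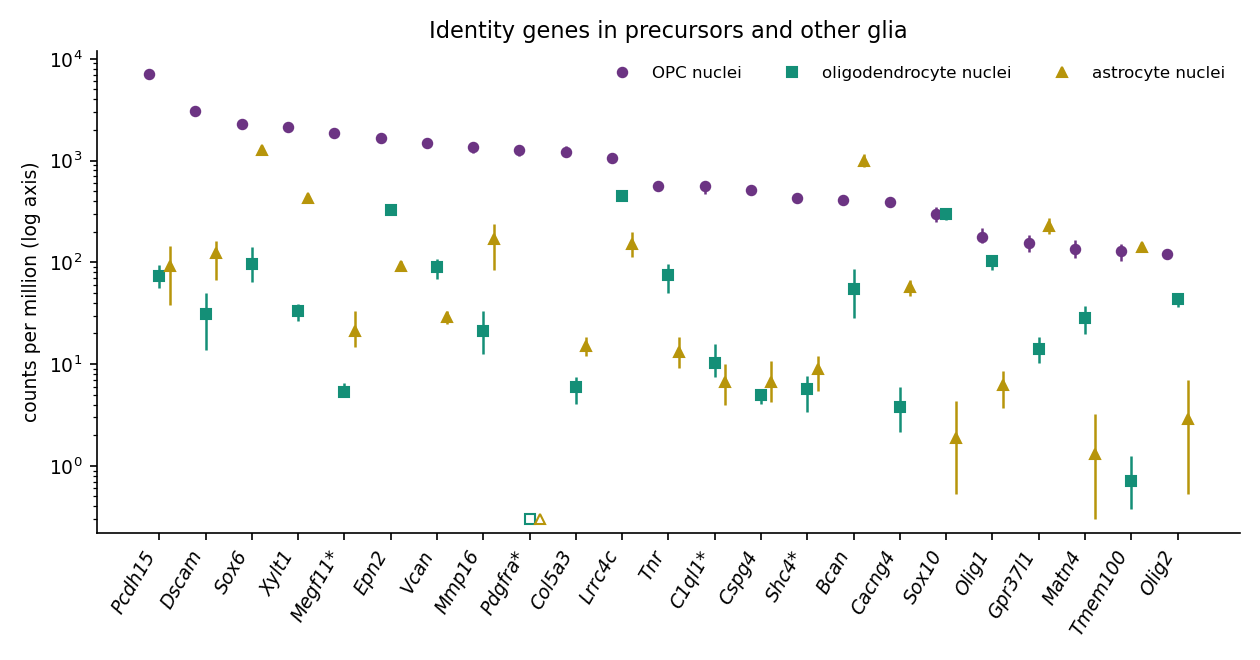
CPM (log axis) of the identity genes that reached 50 in every OPC library, in OPC, oligodendrocyte and astrocyte nuclei. Markers are means and lines run from the lowest to the highest of the 4 libraries; open symbols at the foot are genes at 0, and asterisks mark genes used to select the nuclei. Cspg4 in OPC nuclei spans only 502 to 522, while Sox10 has nearly the same level in OPC and oligodendrocyte nuclei.

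Adhesion and lineage genes filled out the profile. The protocadherin Pcdh15 was at 7082 ± 293 CPM and seen in 99.7% of OPC nuclei, against 73.9 ± 18.1 CPM in oligodendrocyte nuclei. Sox6, a transcription factor of the precursor state, was at 2302 ± 196 CPM against 96.0 ± 35.1 in oligodendrocyte nuclei and 1278 ± 92.0 in astrocyte nuclei. Sox10, needed along the whole oligodendrocyte lineage, was at 296 ± 46.0 CPM in OPC nuclei and 299 ± 31.0 in oligodendrocyte nuclei, a gap smaller than the spread of either, and at 1.88 in astrocyte nuclei. The lineage factors Olig1 and Olig2 were at 177 ± 28.9 and 122 ± 6.66 CPM, and were seen in 38.8% and 30.8% of OPC nuclei. Of the 28 identity genes with a listed symbol, 23 reached 50 CPM in every library, and 22 of these exceeded the level in other nuclei more than 2 times. All of these counts include Pdgfra, C1ql1, Megf11 and Shc4, whose excess the selection set in advance. Over all genes listed, 3282 reached 50 CPM in every library and 619 of these exceeded other nuclei by that factor. The exception was Lrrc4c, a netrin-G ligand, with a ratio of 1.35. Ncan, Nkx2-2, Sstr1 and Sox8 were among those that stayed below 50 CPM in at least 1 library.

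Among genes that reached 50 CPM in every library, the 15 with the highest ratio to other nuclei included, beside 5 of the identity list's leaders (Pdgfra, Col5a3, Cspg4, C1ql1 and Shc4), 9 named genes outside that list. Of those leaders the selection used Pdgfra, C1ql1 and Shc4. Fam89a had 423 ± 40.1 CPM against 2.05 in other nuclei, a ratio of 206, and was seen in 67.1% of OPC nuclei. Arhgap31, a GTPase-activating protein for Rac and Cdc42, had 1751 ± 60.2 CPM and was seen in 864 nuclei. Rlbp1, a retinaldehyde-binding protein best known from retinal glia, had 296 ± 18.9 CPM against 0.454 in oligodendrocyte and 21.6 in astrocyte nuclei. The cyclin Ccnd1 had 143 CPM in saline females, 70.8 in cocaine females, 125 in saline males and 120 in cocaine males. Susd5, Inava, Chst5, Pmel and Pstpip2 completed the named genes, with ratios from 66.9 to 136.

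Receptors and channels known from neurons were part of the profile. Of 44 glutamate and GABA receptor and synaptic adhesion genes with a listed symbol, 30 reached 50 CPM in every library and 9 exceeded other nuclei more than 2 times. Of 43 ion channels and transporters 30 reached that level and 5 exceeded other nuclei by that factor, against 619 of 3282 over all genes. Grin3a, an NMDA receptor subunit, was at 434 ± 22.1 CPM against 59.3 in other nuclei, 8.54 in oligodendrocyte and 20.3 in astrocyte nuclei. The kainate receptor subunit Grik1 was at 510 ± 36.7 CPM against 126, and the AMPA receptor subunit Gria4 at 1596 ± 70.6 against 795. Among growth factor and fate genes, the Notch ligand Dll1 was at 69.2 ± 6.27 CPM against 5.41, and Notch1 at 173 ± 16.3 against 16.3. The PDGF feedback inhibitor Spry4 was at 37.3 ± 12.1 CPM against 1.58. Among neuromodulator receptors 4 of 33 reached 50 CPM in every library, beside 3282 of 30560 over all genes. The endothelin receptor Ednrb (83.4 ± 14.1 CPM against 11.6) and the adenosine receptor Adora1 (104 ± 15.3 against 26.7) led these receptors in ratio. Ednrb was higher in astrocyte nuclei, at 199 CPM, and at 2.18 in oligodendrocyte nuclei. Adora1 was at 69.1 CPM in oligodendrocyte and 35.2 in astrocyte nuclei. The dopamine receptor Drd1 was at 2.17 CPM, seen in 0.673% of OPC nuclei.

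Transcripts of other cell types were also counted in these nuclei. The summed level of 12 pan-neuronal markers was 2466 to 2605 CPM in the 4 libraries, against 519 to 1160 in oligodendrocyte, 1796 to 2914 in astrocyte and 6369 to 6781 in all non-OPC nuclei, and 701 of 891 OPC nuclei (78.7%) held UMIs of at least 3 of them. The 16 myelinating oligodendrocyte markers summed to 818 to 1163 CPM, against 23713 to 29010 in oligodendrocyte nuclei. The 12 astrocyte markers summed to 763 to 1073 CPM, against 13687 to 16604 in astrocyte nuclei. The 12 microglia markers summed to 12.8 to 120 CPM, and 5 of 10 vascular and fibroblast markers (Col1a2, Slc6a13, Dcn, Lum and Pecam1) had no UMI.

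At the edge of the selection, 112 nuclei had exactly 1 Pdgfra UMI and 779 had more. Vcan was seen in 92.9% of the first and 92.4% of the second, and Cspg4 in 62.5% and 73.4%. Just outside, 58 nuclei had Pdgfra but none of C1ql1, Megf11 and Shc4, and Vcan was seen in 22.4% of them. Another 666 had C1ql1, Megf11 or Shc4 but no Pdgfra, with Vcan in 28.5%. A further 138 met both positive conditions but exceeded 1 UMI in a neuronal pair. Vcan was seen in 91.3% of these, and 54 of the 138 were marked as doublets.

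The share of OPC nuclei did not differ between treatments beyond the spread of libraries. It averaged 3.58% ± 0.0765 (SD, n = 2) with saline and 3.26% ± 0.674 with cocaine, a difference of −0.327 percentage points (exact 2-sided permutation test over 4 libraries, p = 1). With 2 libraries against 2, the smallest p this test allows is 0.333. The cocaine library was lower by 0.749 points in females and higher by 0.0958 points in males, and the difference was 0.150 without the cocaine female library and −0.803 without the cocaine male one.

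**Figure D2:**
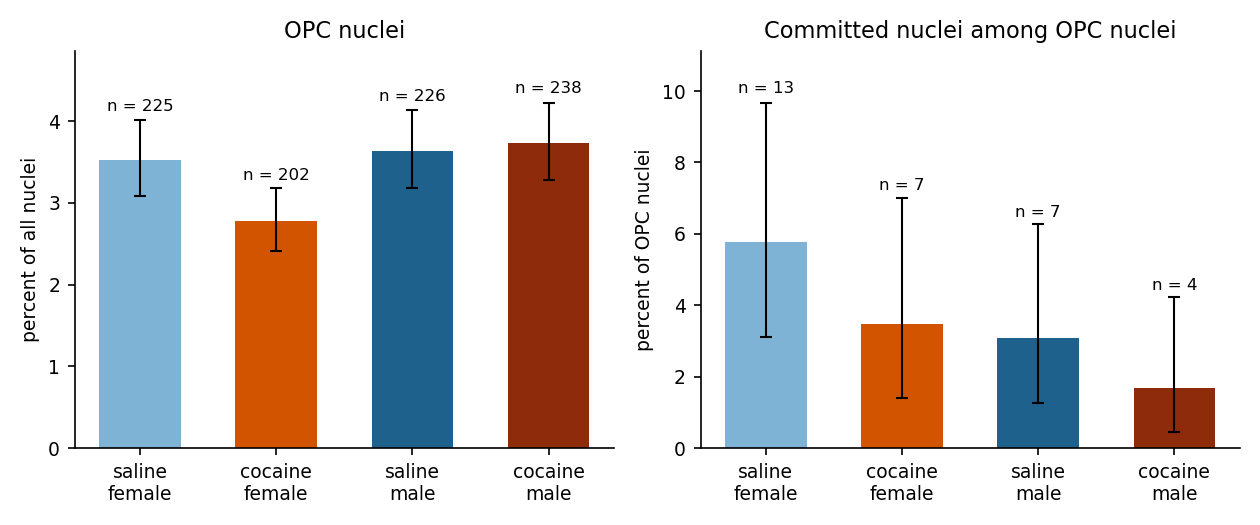
Left, OPC nuclei as a percent of all nuclei; right, committed nuclei as a percent of OPC nuclei, for each of the 4 libraries. Bars carry exact Clopper-Pearson 95% intervals, which cover counting error only, and the number of nuclei. The cocaine female library has the lowest OPC share, 2.78%, and the saline female library the highest committed share, 5.78%.

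A small set of OPC nuclei carried genes of commitment to the oligodendrocyte fate. A nucleus was counted as committed with at least 3 UMIs of Gpr17, Bmp4, Enpp6 and Neu4 from at least 2 of these genes. Gpr17 is a receptor of newly committed cells, Bmp4 a secreted growth factor, Enpp6 a choline phosphodiesterase of newly formed oligodendrocytes and Neu4 a sialidase. By this cut 31 of 891 OPC nuclei (3.48%) were committed: 13 in saline females (5.78%), 7 in cocaine females (3.47%), 7 in saline males (3.10%) and 4 in cocaine males (1.68%). The cut marks a range and not a separate type, since 94 further nuclei held exactly 2 such UMIs and 17 of the 31 held exactly 3. The 31 passed mostly on Neu4, seen in 29 of them, and Bmp4, seen in 22. Gpr17 was seen in 14 and Enpp6 in 4. In the other OPC nuclei Neu4 was seen in 29.0%, Bmp4 in 16.3%, Gpr17 in 5.35% and Enpp6 in 0.116%.

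The committed share was 4.44% ± 1.90 with saline and 2.57% ± 1.26 with cocaine (SD, n = 2), a difference of −1.86 points, and the exact permutation test gave p = 0.667. Leaving out the saline female library gave a difference of −0.524, leaving out the saline male library −3.20, and leaving out the cocaine male library −0.972. It was −0.787 without nuclei of 10 or more myelin UMIs, −2.88 without those of 3 or more pan-neuronal markers and −0.835 with the cut at 5 UMIs. The cocaine library had the lower share within each sex, by 2.31 points in females and 1.42 in males, but cocaine females and saline males overlapped. That overlap depended on the cut. With the cut at 2 UMIs the shares were 20.0% and 15.5% in saline females and males, and 14.9% and 10.1% in cocaine females and males. With the cut at 2 or at 5 UMIs the exact permutation test gave p = 0.333, the smallest it allows. Depth moved with the cut. Committed nuclei had a median of 4073 UMIs in saline females and 4419.5 in cocaine males, against 3560 and 2357.5 in the other OPC nuclei of those libraries. After thinning to 1000 UMIs, 1 nucleus in each saline library and none in the cocaine libraries passed the cut; 0 of 202 and 0 of 238 nuclei allow shares of up to 1.49% and 1.26%.

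Genes that the cut did not use were then set side by side in committed and other OPC nuclei. Levels over summed committed nuclei carry no replicate error. Pdgfra, required of both, was at 1064 CPM in committed and 1265 in other OPC nuclei, Pcdh15 at 6589 and 7129, and Sox6 at 2632 and 2291. Bcas1, a marker of early myelinating cells, was at 5655 CPM against 1950. It was also seen in 93.7% of the other OPC nuclei, and was at 1791 CPM in oligodendrocyte nuclei. The Src-family kinase Fyn was at 1365 CPM against 500.3, the Wnt effector Tcf7l2 at 626 against 234, and the deacetylase Sirt2 at 374 against 78.1. Of the same list, Rras2 was at 24.4 CPM against 28.9, Bmpr1b at 0 against 9.01 and Arap2 at 32.5 against 28.2. Of late myelin genes, Mog was at 40.6 CPM against 51.8, and Opalin had no UMI in committed nuclei. Among genes outside the cut with at least 20 UMIs in committed nuclei, Col20a1 (ratio 11.9), Tmem108 (9.88) and Arhgap24 (5.12) were among those with the highest ratios to other OPC nuclei.

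More nuclei met the same cut outside the Pdgfra requirement. Among nuclei with no Pdgfra UMI and few neuronal UMIs, 123 passed it: 23 in saline females, 22 in cocaine females, 38 in saline males and 40 in cocaine males. The oligodendrocyte rule, at least 5 UMIs of 5 myelin genes, also took 114 of these 123. They had Enpp6 at 1717 CPM, against 97.5 in the 31 committed OPC nuclei, Nfasc at 4285 against 528, Mbp at 5108 against 292 and Cspg4 at 10.4 against 406. Frmd4a, a FERM-domain scaffold protein, reached 24238 CPM there, 2364 in committed OPC nuclei and 596 in other OPC nuclei. Tmem108, a transmembrane protein, reached 9920, 1804 and 183 CPM.

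**Figure D3:**
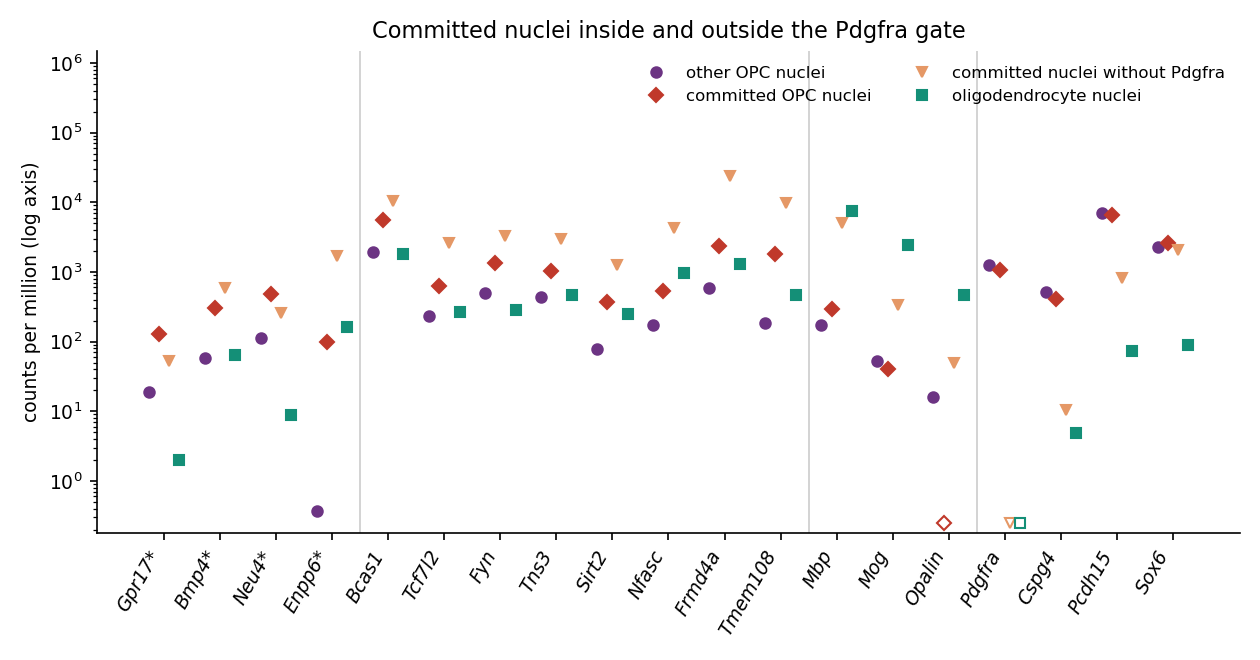
CPM (log axis) in other OPC nuclei (860), committed OPC nuclei (31), nuclei that pass the same cut without Pdgfra (123, most of them also counted as oligodendrocyte nuclei) and oligodendrocyte nuclei (6930), summed over libraries. Asterisks mark genes of the cut, open symbols are genes at 0, and grey lines part the cut, early, myelin and precursor genes. Frmd4a and Tmem108 step up from 596 and 183 in other OPC nuclei to 24238 and 9920 in committed nuclei without Pdgfra.

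UMIs of dividing cells were rare. Mki67 or Top2a, which are made in dividing cells, had a UMI in 30 OPC nuclei (3.37%): 5 and 6 in saline and cocaine females, 10 and 9 in saline and cocaine males. The 20 cell cycle features summed to 132 to 225 CPM in OPC nuclei, against 17.7 to 20.2 in oligodendrocyte and 26.5 to 59.9 in astrocyte nuclei.

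Cocaine against saline was tested on UMIs summed over the OPC nuclei of each library. From here on, CPM values are scaled between libraries by TMM (a trimmed mean of ratios) over the genes tested. Of 8286 genes tested, 3 fell with cocaine and 0 rose (edgeR quasi-likelihood with sex as a covariate, Benjamini-Hochberg adjusted p under 0.05), which is 0.0362% of genes. At an unadjusted p under 0.05 there were 477 genes, 233 higher and 244 lower, and DESeq2 called 0 genes, with 13 at an unadjusted p under 0.05. The fit leaves 1 residual degree of freedom per gene, and all genes share a single trend of spread, on which small p-values rest.

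Egfem1, an EGF-like domain gene of the adhesion list, fell with cocaine and was lower in both sexes. It was at 297 CPM in saline females and 360.5 in saline males, and at 195 in cocaine females and 191 in cocaine males, so the groups did not overlap. The log2 fold change was −0.76 (SE 0.147), 1.69 times lower, with an edgeR adjusted p of 0.00203. It was seen in 48.0% and 43.8% of OPC nuclei of the saline libraries and in 35.6% and 27.7% of the cocaine libraries. The committed nuclei held 26 of its 706 UMIs, and without them the log2 fold change was −0.70 and still passed. The call was lost with each of the saline male, cocaine female and cocaine male libraries left out (log2 fold changes −0.63, −0.78 and −0.75).

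Frmd4a, the scaffold gene high in committed nuclei, was at 969 CPM in saline females, 626 in cocaine females, 604 in saline males and 496 in cocaine males. The saline female library stood alone, and the groups overlapped, since cocaine females exceeded saline males. The log2 fold change was −0.48 (SE 0.103, edgeR adjusted p 0.0163). The 31 committed nuclei, with 4.42% of all OPC UMIs, held 291 of its 1879 UMIs. Of the 291, 219 were in saline females, and 1 nucleus of that library alone held 97 UMIs. Without committed nuclei the saline female value was 755 CPM and the log2 fold change −0.25, which did not pass. Without the saline female library it was −0.11, and without the cocaine male library −0.35; neither passed.

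Tmem108 was at 330.3 CPM in saline females, 298 in saline males, 247 in cocaine females and 153 in cocaine males, with no overlap. The log2 fold change was −0.65 (SE 0.147, edgeR adjusted p 0.0269). Committed nuclei held 222 of its 708 UMIs (31.4%). Without them the values were 209 and 207 CPM in saline females and males and 213 and 119 in cocaine females and males, and the log2 fold change was −0.33, which did not pass. The number of committed nuclei, 13 and 7 with saline and 7 and 4 with cocaine, moved with Frmd4a and Tmem108. Its part in the change of these genes was not tested. Leaving out the saline female or the cocaine male library also ended the call of Tmem108 (log2 fold changes −0.57 and −0.36). Requiring at least 2 Pdgfra UMIs ended the calls of Egfem1, Frmd4a and Tmem108 (−0.68, −0.30 and −0.48), and with nuclei thinned to 1000 UMIs Frmd4a alone passed.

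**Figure D4:**
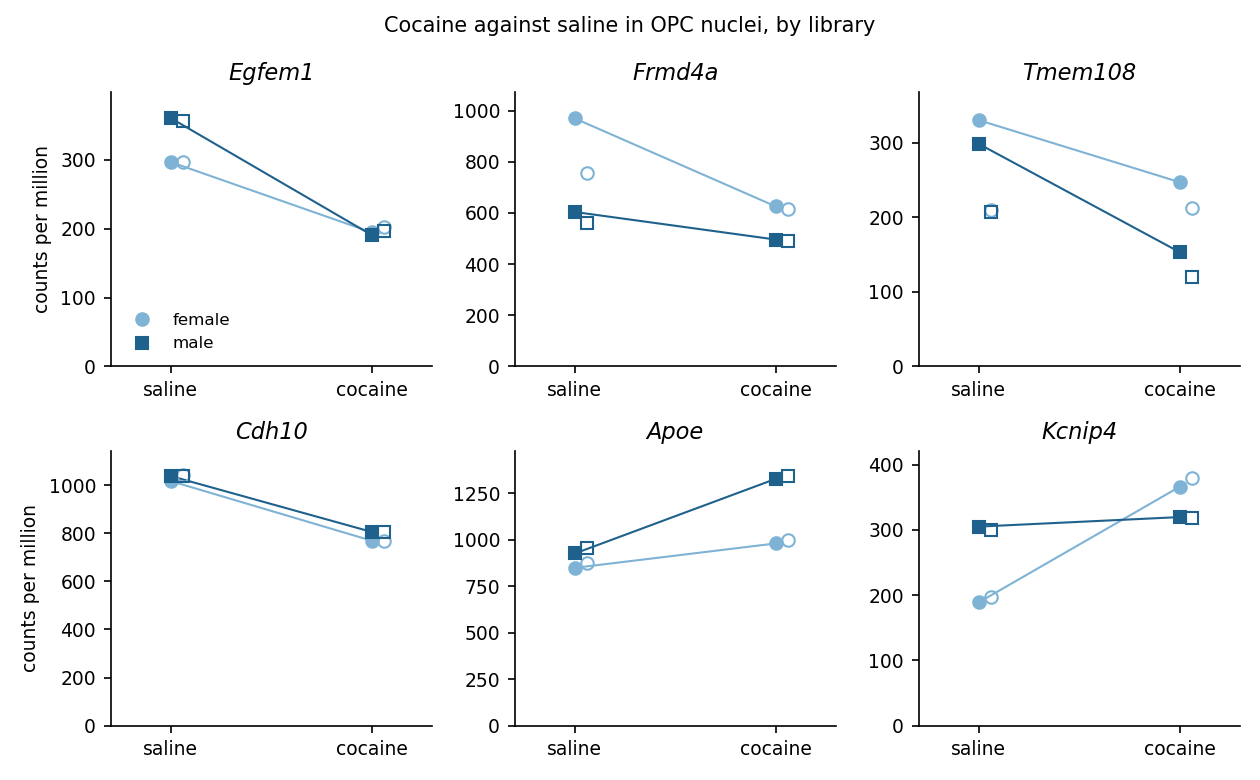
CPM in OPC nuclei by library, with saline and cocaine joined within each sex (circles female, squares male); open symbols leave out committed nuclei. Egfem1, Frmd4a and Tmem108 passed the test, and Cdh10, Apoe and Kcnip4 did not. Without committed nuclei the saline and cocaine values of Tmem108 in females nearly coincide at 209 and 213.

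The next genes by p-value did not pass the test, and their values are given without a call. Cdh10, a cadherin, was at 1017 and 1038 CPM in saline females and males and at 769 and 806 in the cocaine libraries, so the groups did not overlap (log2 change −0.38, edgeR adjusted p 0.0558). Ppargc1a, a coactivator of mitochondrial biogenesis, was at 1404 and 1283 CPM with saline and 1092 and 1046 with cocaine. Ntrk3, the neurotrophin-3 receptor, was at 969 and 942 CPM with saline and 748 and 791 with cocaine. The others on the lower side were Adamtsl1, Stxbp6, Xpr1 and Rbfox1, with log2 fold changes from −0.23 to −1.05. Cdh10 passed without committed nuclei (−0.41) and without nuclei holding 7 or more pan-neuronal markers (−0.39).

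On the higher side Apoe, the apolipoprotein of astrocytes that OPCs also express, was at 848 and 926 CPM with saline and 979 and 1326 with cocaine in females and males. Its log2 fold change was 0.36 (edgeR adjusted p 0.0662). Tm7sf3 was at 52.7 and 53.7 CPM with saline and 94.2 and 94.6 with cocaine, the closest agreement between sexes among these genes. Zbtb7c had 1 and 2 UMIs in the saline libraries and 12 and 10 in the cocaine libraries. Zbtb10 and Cox4i1 had log2 fold changes of 1.27 and 0.96.

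Nuclei marked as doublets were 35 of 891 and held 6.36% of OPC UMIs, but a larger share of the UMIs of several genes on the higher side. These nuclei held 157 of 247 UMIs of Pex5l (63.6%), a gene at 2752 to 3175 CPM in the oligodendrocyte nuclei of the 4 libraries, and 41 of 91 UMIs of the bicarbonate transporter Slc4a4 (45.1%), a gene at 1656 to 2248 CPM in astrocyte nuclei. They held 41 of 125 UMIs of the NMDA receptor subunit Grin2b (32.8%), 57 of 157 of Tafa2 (36.3%) and 248 of 773 of the potassium channel partner Kcnip4 (32.1%). For Kcnip4, 131 of the 237 UMIs of the cocaine female library came from 1 nucleus, and with marked nuclei removed its log2 fold change went from 0.51 to −0.02. Apoe and Tm7sf3 had 5.61% and 6.67% of their UMIs in marked nuclei.

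The lists of genes by role had a single call among them. Of 52 adhesion and guidance genes tested, 1 fell (Egfem1), 42 had a negative log2 fold change and the median was −0.07, against −0.005 over all genes tested. Both cocaine libraries lay below both saline libraries for 22 of the 52; over all genes tested this held for 16.4%, and the opposite for 16%. The sign went with level across all genes: of 105 genes with a mean of at least 1000 CPM, 94 (89.5%) were negative and 56.2% lay below saline in both cocaine libraries, against 47.3% negative among genes under 50 CPM. Of the 17 adhesion genes in that top class 16 were negative and 10 lay below. From 200 to 1000 CPM 17 of 20 were negative and 7 lay below, against 65.8% and 24.5% of all genes in that class. From 50 to 200 CPM 8 of 10 were negative and 4 lay below, against 49.6% and 16.7%. Under 50 CPM 1 of 5 was negative and 1 lay below, against 47.3% and 13.6%. The shallower cocaine libraries moved with the sign of abundant genes, and their part was not tested.

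The precursor programme as measured by identity genes had no call. Of 25 identity genes tested 16 were negative with a median of −0.08, and edgeR called 0, with 1 higher and 6 lower at an unadjusted p under 0.05. The 25 include Pdgfra, C1ql1, Megf11 and Shc4, which the selection used, and Pdgfra is 1 of the 6 lower. Over all 8286 genes tested 4191 were negative, with 233 higher and 244 lower at that p, and the negative share was larger among abundant genes, as given above. Sox6 was at 2496 and 2646 CPM with saline and 2127 and 2258 with cocaine (log2 fold change −0.23, edgeR adjusted p 0.327), and Col5a3 at 1313 and 1449 with saline and 1132 and 1170 with cocaine (−0.26, edgeR adjusted p 0.429). Pdgfra, used by the selection, had −0.17 and overlapping groups. Of 31 PDGF signalling genes, Pdgfra and Shc4 of the selection among them, 20 were negative (median −0.06). Spry4 was at 50.3 and 47.0 CPM with saline and 21.6 and 35.9 with cocaine. Of 31 lineage transcription factors 21 were negative (median −0.09). Sox10 went the other way without passing, from 258.5 and 282 CPM to 331 and 352 (edgeR adjusted p 0.688).

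Other roles gave no call either by edgeR. Of 36 glutamate and GABA receptor genes 1 was higher and 2 lower at an unadjusted p under 0.05, and of 36 channels and transporters 4 were higher and 3 lower, beside 233 higher and 244 lower of 8286 over all genes. Of 25 matrix genes 16 were negative (median −0.03), led by Adamtsl1 at 62.2 and 83.8 CPM with saline and 34.0 and 35.9 with cocaine. Of 25 growth factor and fate genes 16 were negative (median −0.02), and of 5 neuromodulator receptors tested 3 were positive. Of 14 glucocorticoid and circadian genes 9 were positive (median 0.11), and the clock gene Arntl was at 35.9 and 33.5 CPM with saline and 21.6 and 19.6 with cocaine. Of 37 immediate-early genes with a symbol, which neurons switch on within the hour, only 5 were high enough in OPC nuclei to be tested. All 5 were negative and none passed, with Nr4a1 at 33.5 and 45.3 CPM with saline and 29.4 and 32.6 with cocaine. Fos had no UMI in the female libraries and 1.60 CPM in each male library before scaling.

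**Figure D5:**
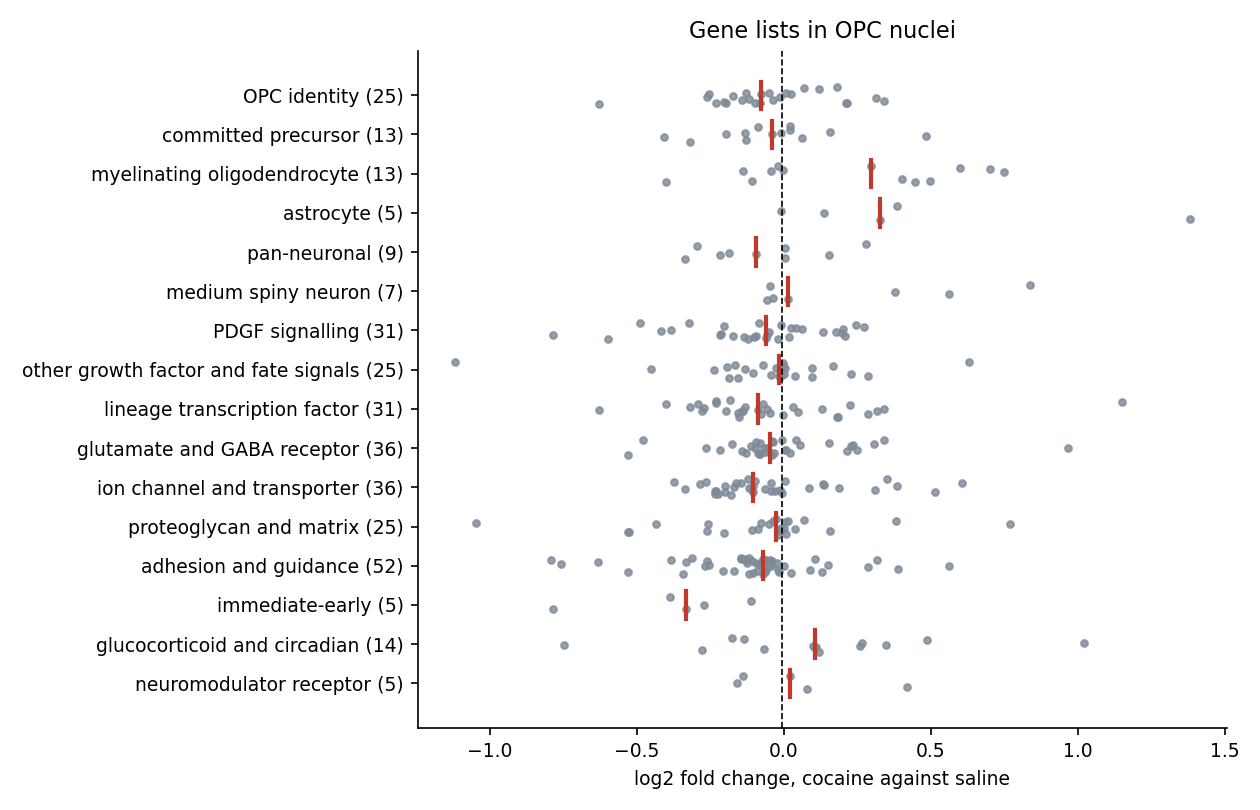
Log2 fold change of cocaine against saline for the tested members of each gene list with 5 or more (number in brackets); grey points are genes, red bars the list median and the dashed line the median of all genes tested. Medians lie between −0.33 for 5 immediate-early genes and 0.33 for 5 astrocyte markers, and of the points shown 1, Egfem1 among the adhesion genes, passed the test.

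Markers of other cell types moved with treatment in places. The summed astrocyte markers in OPC nuclei were 872 and 763 CPM in saline females and males and 1073 and 911 in the cocaine libraries. Of the 5 tested none passed, with Slc1a2, the main astrocytic glutamate transporter, at 223 and 205 CPM with saline and 294 and 264 with cocaine. Of 13 myelin genes tested 7 were positive (median 0.30), led by Mbp at 146 and 166 CPM with saline and 259.5 and 176 with cocaine. Nuclei marked as doublets held 71.0% of the Mbp UMIs. The 16 committed precursor genes had 13 tested, 8 negative, with a median of −0.04.

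The sexes differed in 27 of 8286 genes (0.326%), 14 higher in females and 13 higher in males (edgeR, Benjamini-Hochberg, treatment as covariate), and DESeq2 called 2. The 14 include Ebf1, at a log2 difference of 1.52 (edgeR adjusted p 0.0217). The selection limits the UMIs of Ebf1 in each nucleus, so that call rests on values the selection used. The male side held the Y-linked Kdm5d at 70.4 and 58.7 CPM, Eif2s3y at 67.1 and 60.4, and a gene listed as Ddx3 at 68.7 and 70.2, each with no UMI in females. Larger still were 2 genes listed by identifier and singled out after their values were seen. ENSRNOG00000065796 was at 309 and 212 CPM in females with no UMI in males, and ENSRNOG00000060617 at 252 and 194 in males with no UMI in females. Mertk, a phagocytic receptor, was at 328 and 287 CPM in saline and cocaine females and at 124 and 220.2 in saline and cocaine males, a log2 difference of 0.86 (SE 0.153, edgeR adjusted p 1.96e-05). Zbtb16, a glucocorticoid-responsive transcription factor, was at 576 and 535 CPM in females and 325 and 423 in males (0.58, edgeR adjusted p 0.000658). B4galt6, Tecpr2 and Frmd4a were also higher in females, with log2 differences of 0.85, 0.87 and 0.52. Leaving out single libraries ended several of these calls. Mertk was at 0.49 without the saline male library, Zbtb16 at 0.52 and 0.40 without the saline female or saline male, and Frmd4a at 0.19 and 0.42 without the saline female or cocaine male. B4galt6 (0.62 and 0.81) and Tecpr2 (0.77 and 0.70) did not pass without the cocaine female or cocaine male library.

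On the male side Cntn5, a contactin of synaptic adhesion, was at 7.17 and 21.6 CPM in saline and cocaine females and 52.0 and 60.4 in males (log2 difference −2.02), and did not pass without the saline female library (−1.37). Pcsk2, a prohormone convertase, was at 296 and 275 CPM in females and 433 and 409 in males (−0.56, edgeR adjusted p 0.00956). It passed under 6 of 15 alternatives and under none of the 4 that leave out a library, where the difference lay between −0.61 and −0.50. Median depth was higher in both female libraries than in both male ones, and with nuclei thinned to 1000 UMIs 9 genes passed. Each sex is also 2 pools only, so sex and any other difference between those pools cannot be told apart.

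The cocaine effect was then set against that in other glia of the same libraries, by an interaction with library as a block. Oligodendrocyte nuclei (6930) were taken by at least 5 UMIs of myelin genes and astrocyte nuclei (1940) by at least 5 UMIs of astrocyte genes, both without Pdgfra. Against oligodendrocytes 0 of 11671 genes differed (0%; 704 at an unadjusted p under 0.05), and the adjusted p of Egfem1, Frmd4a and Tmem108 ran from 0.816 to 0.995.

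Against astrocytes 40 of 11358 genes differed (0.352%; edgeR, Benjamini-Hochberg), 38 of them with a lower log2 fold change in OPC nuclei. Pde10a, a medium spiny neuron phosphodiesterase, had log2 fold changes of 2.34 in astrocyte and −0.06 in OPC nuclei, and Neto1, a kainate receptor partner, 1.91 and −0.06. On the other side stood Zbtb7c, at 2.94 in OPC nuclei and −0.61 in astrocyte nuclei, and Disc1, at −0.10 and −1.66. The summed pan-neuronal markers of astrocyte nuclei were 1912 and 1796 CPM with saline and 2914 and 2807 with cocaine, while in OPC nuclei they were 2605 and 2552, and 2466 and 2549. With nuclei holding 7 or more pan-neuronal markers removed from both types, 1 gene, Pde10a, remained. The differences of Zbtb7c (3.48), Disc1 (1.65) and Dlgap2 (−1.44) were then about as large as before but did not pass, while that of Neto1 was −0.18.

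Of the 3 genes called in OPC nuclei, Tmem108 differed from astrocytes (OPC minus astrocyte −1.73, edgeR adjusted p 0.0156), while Egfem1 (−1.61, edgeR adjusted p 0.160) and Frmd4a (−0.49, edgeR adjusted p 0.855) did not pass. In astrocyte nuclei Tmem108 rose with cocaine, from 99.4 and 65.5 CPM in saline females and males to 165 and 175 (log2 fold change 1.04, edgeR adjusted p 0.000101). Egfem1 rose there too, from 186 and 70.4 to 309 and 145 CPM (0.86, edgeR adjusted p 0.000165). Both had thus fallen in OPC nuclei and risen in astrocyte nuclei. With nuclei of 7 or more pan-neuronal markers removed from both types, the astrocyte log2 fold changes were −0.80 for Tmem108 and −0.98 for Egfem1, neither passing, and the differences 0.16 and 0.25. Rbfox1, a splicing factor of neurons, also differed from astrocytes (−1.25, edgeR adjusted p 0.0343), by −0.51 after that removal and without passing.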

How the data were processed

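The values analysed were counts of UMIs per gene and nucleus in 4 matrices that the authors deposited, made with Cell Ranger 6.1.2 per the file headers and with genome build rn7 per the submitters' processing notes; the gene annotation is not given in the sources used here. The matrices hold 26228 nuclei and 30560 genes, of which 7162 carry an identifier in place of a symbol and enter no gene list. Ptprz1 and Lhfpl3 of the identity list were not found by symbol, and no coordinates are given.

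The OPC nuclei and all gene lists were chosen with earlier results of these data known, so they lend no independent support. UMIs were summed per library and tested by quasi-likelihood in edgeR 4.0.16 (R 4.3.3) with TMM scaling, its default filter on low counts by treatment group, and terms for sex and treatment, with Benjamini-Hochberg adjustment over all genes tested and a threshold of 0.05. Log2 differences within a sex added 0.5 UMI. Interactions with oligodendrocyte or astrocyte nuclei used library as a block. DESeq2 1.42.0 was an alternative. Doublets were scored per library with Scrublet in scanpy 1.11.5, marking the top 0.8% per 1000 nuclei. Shares were compared by exact permutation tests (scipy 1.17.1), with exact 95% intervals. Intervals and the limits for a count of 0 (3 counts) cover counting error only. The procedure was run on simulated counts drawn with the same spread for all genes. That run cannot show how far the small p-values hold in these data.

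Genes were named by rule: up to 10 a direction by p-value for cocaine, filled where fewer passed, up to 5 a direction for sex and interaction (with the cocaine genes that passed it added after their values were seen), the 15 highest ratios for identity, the 10 highest for committed nuclei, and up to 4 by p-value per list; a few genes that these rules name are not reported here. Genes of other lists named for their level, and the per-nucleus counts of doublet and committed nuclei, were chosen after their values were seen. Alternatives were other size factors, no filter on low counts, DESeq2, other covariates, stricter nuclei, a cut at 2 or 5 UMIs, and leaving out each library. Removing nuclei with 7 or more pan-neuronal markers, and thinning to 1000 UMIs for the gene tests, were added after seeing the data.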

Additional observations from a re-analysis of the deposited data

Results flagged for a closer look

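The cocaine effect differed between OPC and astrocyte nuclei, by the interaction test, for 9 named genes. The log2 difference, OPC minus astrocyte, was 3.62 for Zbtb7c and 1.53 for Disc1, a scaffold protein of neural development. It was −1.99 for Neto1, −2.42 for Pde10a, −1.66 for Homer1, −1.78 for Dlgap2 and −1.64 for Tmem132d. For these last 5 the OPC log2 fold changes lay between −0.34 and −0.05 and the astrocyte ones between 1.43 and 2.34. With nuclei holding 7 or more pan-neuronal markers removed from both types, the difference was −0.18 for Neto1, −0.25 for Homer1 and −0.11 for Tmem132d, and −2.80 for Pde10a. It was 3.48 for Zbtb7c, 1.65 for Disc1 and −1.44 for Dlgap2, about as large as before, and of these 7 Pde10a alone passed. The difference was −1.73 for Tmem108 and −1.25 for Rbfox1, and 0.16 and −0.51 after the same removal. Zbtb7c rests on 25 UMIs in OPC nuclei.

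Some values moved in opposite directions in the 2 sexes, with 1 library per sex and treatment, and these differences were not tested. The OPC share, cocaine minus saline, was −0.749 percentage points in females and 0.0958 in males. On the log2 scale the adaptor Nck2 had −1.22 in females and 0.105 in males, and the muscarinic receptor Chrm3 0.124 and −0.520.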

How the results depend on the processing

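Over 55 named gene results and 767 alternatives, 673 kept direction and side of the threshold, 75 lost the call, 13 gained it and 6 reversed. Most of the cocaine results had no call to lose, so the 673 do not measure how well calls held. Of the genes called for cocaine, Egfem1 passed under 8 of 15 alternatives, Frmd4a under 9 and Tmem108 under 7. Genes called for cocaine numbered 7 with no filter on low counts, 0 with DESeq2, 1 without the sex covariate, 0 with at least 2 Pdgfra UMIs, 6 without nuclei of 7 or more pan-neuronal markers and 1 after thinning. They numbered 7 without the saline female library, 6 without the cocaine female, 18 without the saline male and 6 without the cocaine male, from 6 to 18; these fits drop the sex term. Sex calls numbered 2 with DESeq2, 12 without the treatment term, 6 with at least 2 Pdgfra UMIs, 17 without doublets, 8 without nuclei of 3 or more pan-neuronal markers, 9 after thinning and 15 to 22 with 1 library left out. Against oligodendrocytes, calls numbered 207 with no filter, 76 with 2 Pdgfra UMIs, 10 without nuclei of 3 or more pan-neuronal markers, 14 without those of 7 or more, 1 without committed nuclei, and 10 to 309 with 1 library left out. Against astrocytes they numbered 179, 77, 97 without doublets, 74 without committed nuclei, 75 without OPC nuclei of 7 or more pan-neuronal markers, 1 with such nuclei removed from both types, and 97 to 141 with 1 library left out. The difference in OPC share was 0.216 points without nuclei of 3 or more pan-neuronal markers, which leaves 28 to 70 nuclei a library, and the committed share differed by −5.28 points with the cut at 2 UMIs. Kcnip4 reversed to −0.017 without doublets and −0.0046 without nuclei of 3 or more pan-neuronal markers, where Nrxn3 was 0.034. Tmem108 against astrocytes reversed to 0.156 with nuclei of 7 or more pan-neuronal markers removed from both types. Without the cocaine male library Cd9 (−0.00052) and Chrm3 (0.074) reversed; over left-out libraries they reached 0.436 and −0.486. The cause of these shifts was not tested. The sex term of the fits already sets saline against cocaine within each sex, the only pairing the labels give, and they carry no replicate numbers for another block. With 2 libraries a group and 202 to 238 OPC nuclei each, genes of few UMIs, such as Zbtb7c, and shares of a few nuclei are limited by depth.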
